A study of Mus musculus with 54 samples.

Results

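The genes described here encode the chains of collagen and the enzymes that modify them, followed in mouse embryonic stem cells (ESCs) and embryoid bodies (EBs) in which Mageb16 had been depleted. The members were taken by name from the array annotation: every collagen chain gene (Col followed by its type and chain numbers), the lysyl oxidases Lox and Loxl1 to Loxl4, the prolyl 4-hydroxylase alpha subunits P4ha1 to P4ha3 and the lysyl hydroxylases Plod1 to Plod3. A gene was included where a probe set carried its symbol and no other, and where several probe sets did, the one with the highest mean over all arrays was used. This gave 42 members, 33 chains and 9 enzymes, of 14104 genes taken the same way. Of 56 chains and enzymes listed by kind, Col10a1, Col11a2, Col20a1, Col21a1, Col24a1, Col28a1, Col4a3, Col4a4, Col6a4, Col6a5, Col6a6, Col9a2, Loxl2 and Loxl4 were not analysed here. Every member was kept in the tests, with no filter on low signal.

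Total RNA of CGR8 cells, an established mouse ESC line of strain 129 (male), was hybridised to Affymetrix Mouse 430 2.0 arrays, which read the 3′ part of transcripts, with 3 arrays in each of 18 groups. Of the 3 cell populations, KD cells carried a short hairpin RNA plasmid against Mageb16, SCR cells carried a non-targeting scrambled hairpin plasmid and WT cells were not transfected. Each was measured as undifferentiated ESCs (day 0) and as EBs formed by the hanging drop method at days 2, 4, 12, 15 and 22. KD and SCR were 1 puromycin-selected polyclonal line each, so the hairpin, the transfection and the line cannot be told apart in any comparison between populations. Signals are log2 values after robust multi-array averaging (RMA), in which 1 unit is a 2-fold difference. A change was taken to pass when the limma adjusted p was under 0.05 and the change was at least 2-fold, and the words rose and fell are kept for such changes. RMA signals of different probe sets are not on a common scale, so that each gene is compared only with itself. EBs are mixtures of cells, and fewer cells of a type and less RNA per cell cannot be told apart.

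Mageb16 itself was lower on all 3 KD arrays than on every SCR and WT array of the same day, at each of the 6 time points, and its KD means lay between 3.76 and 7.12, against 9.20 to 10.09 in SCR and 7.04 to 9.95 in WT. At day 4 Mageb16 read 9.75, 9.30 and 9.48 in SCR, against 7.16, 6.98 and 6.98 in WT. SCR was thus 2.47 above WT at day 4 and 1.19 above WT at day 2, and both differences passed. Between day 0 and day 4 Mageb16 fell by 2.91 in WT and gave -0.56 in SCR, which did not pass. In KD it was 2.63 higher at day 22 than at day 12, a change that passed. SCR at day 4 thus stood apart from WT in the targeted gene too, and its arrays were used as labelled. Arrays of a group correlated at 0.986 to 0.997, array medians ran between 5.94 and 6.26, and the lower quartile of the signals on an array between 4.23 and 4.51. The median SD within a group was 0.154 for the members. Col17a1, Col19a1 and P4ha3 stayed below the lower quartile in all 18 groups, Col8a1 and Col22a1 in 17 and Col15a1 in 16, so that a low signal of these genes says little about their transcripts. Where the mean of a group lay below the lower quartile, a change against it is given as fitted, and its size there is uncertain.

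Collagens are built from 3 polypeptide chains wound into a triple helix. Inside the cell, prolyl 4-hydroxylases hydroxylate proline residues and so stabilise the helix, and lysyl hydroxylases modify lysines that later carry cross-links and sugars. Outside the cell, lysyl oxidases oxidise lysines of collagen and elastin and so start the covalent cross-linking of the fibres. Types I, III and V form the fibrils of mesenchymal tissue, types II, IX and XI those of cartilage, type IV the network of basement membranes, and type VI beaded filaments close to cells. Mesenchymal cells are the main producers of fibrillar collagen, while parietal endoderm is known for its large output of type IV collagen.

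Several chain genes lie beside each other in the mouse genome, and the windows around the starts of a few members that the results turn on are shown here. Col4a1 and Col4a2, the pair that makes the common type IV heterotrimer, are transcribed away from each other on chromosome 8, and their annotated starts are 21 bases apart. Promoter windows (250 bases before to 50 after the start, RefSeq, GRCm38.p6) were found for 30 of the 42 members. The Col4a1 window (chr8:11312777-11313076, minus strand) and the Col4a2 window (chr8:11312555-11312854, plus strand) share 78 bases, given in capitals, each read 5′ to 3′ on its own strand.
Col4a1: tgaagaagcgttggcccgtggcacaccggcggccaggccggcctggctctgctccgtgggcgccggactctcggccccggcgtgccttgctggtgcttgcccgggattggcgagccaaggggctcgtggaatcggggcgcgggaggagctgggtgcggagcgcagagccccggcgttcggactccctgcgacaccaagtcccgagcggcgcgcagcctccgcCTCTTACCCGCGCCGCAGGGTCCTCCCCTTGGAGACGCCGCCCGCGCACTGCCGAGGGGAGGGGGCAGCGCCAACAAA
Col4a2: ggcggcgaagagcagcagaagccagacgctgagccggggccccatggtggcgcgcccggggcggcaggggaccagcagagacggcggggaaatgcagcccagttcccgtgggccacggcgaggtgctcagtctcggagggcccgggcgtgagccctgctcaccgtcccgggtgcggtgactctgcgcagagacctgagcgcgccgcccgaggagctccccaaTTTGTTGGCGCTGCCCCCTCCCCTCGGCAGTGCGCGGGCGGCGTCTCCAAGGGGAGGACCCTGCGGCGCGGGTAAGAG
Col1a2, the second chain of type I collagen, is shown because it and Col1a1, its partner chain, passed in opposite directions at day 4 in the probe sets used. Its window (chr6:4505368-4505667, plus strand) is given with the CCAAT motif, searched on both strands (CCAAT or ATTGG), in capitals.
Col1a2: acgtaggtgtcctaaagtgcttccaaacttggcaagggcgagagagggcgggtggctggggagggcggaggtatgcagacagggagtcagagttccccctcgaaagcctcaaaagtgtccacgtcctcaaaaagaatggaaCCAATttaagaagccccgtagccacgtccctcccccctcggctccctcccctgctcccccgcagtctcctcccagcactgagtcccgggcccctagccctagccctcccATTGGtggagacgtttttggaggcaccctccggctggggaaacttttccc
The motif stood at 2 places in this window, and 37.4% of the 32851 windows in the table hold it at least once on either strand, as do windows of 13 of the 30 members. A match is a description of the letters only. Col4a5 and Col4a6, basement membrane chains on the X chromosome, are also transcribed away from each other, with 1343 bases between their starts. Col3a1 and Col5a2 are neighbours on chromosome 1, and Col6a1 and Col6a2 on chromosome 10.

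Collagen genes rose during differentiation in all 3 populations. Taken over days 12, 15 and 22 together against day 0, 26 of the 42 members rose in KD EBs and none fell, against 22.6% of all genes higher and 11.4% lower. In SCR EBs 20 members rose and 1 fell, where 15.2% of all genes were higher and 5.2% lower. In WT EBs 22 rose and 1 fell, with 11.7% of all genes higher and 3.26% lower. The median change of the members in KD was 1.78, beside 0.08 for all genes. Col3a1, a chain of reticular fibres, had the widest fitted change in all 3 populations, 9.87 in KD, 8.12 in SCR and 7.95 in WT. On the single arrays, Col3a1 read 4.05, 4.01 and 3.60 at day 0 and 13.78, 13.71 and 13.77 at day 12 in KD. In SCR it read 3.82, 3.50 and 3.86 at day 0 and 12.28, 11.94 and 12.28 at day 12, and in WT 3.81, 3.94 and 3.91 at day 0 and 12.72, 13.16 and 12.94 at day 12. The KD values of Col3a1 lie close to 14.03, the highest value of any probe set in the series, and all its day 0 arrays lie below the lower quartile, so that neither the size of these changes nor their rank is exact. Col5a3 was the member that fell in SCR, by 1.14, and in WT, by 1.25.

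**Figure D1:**
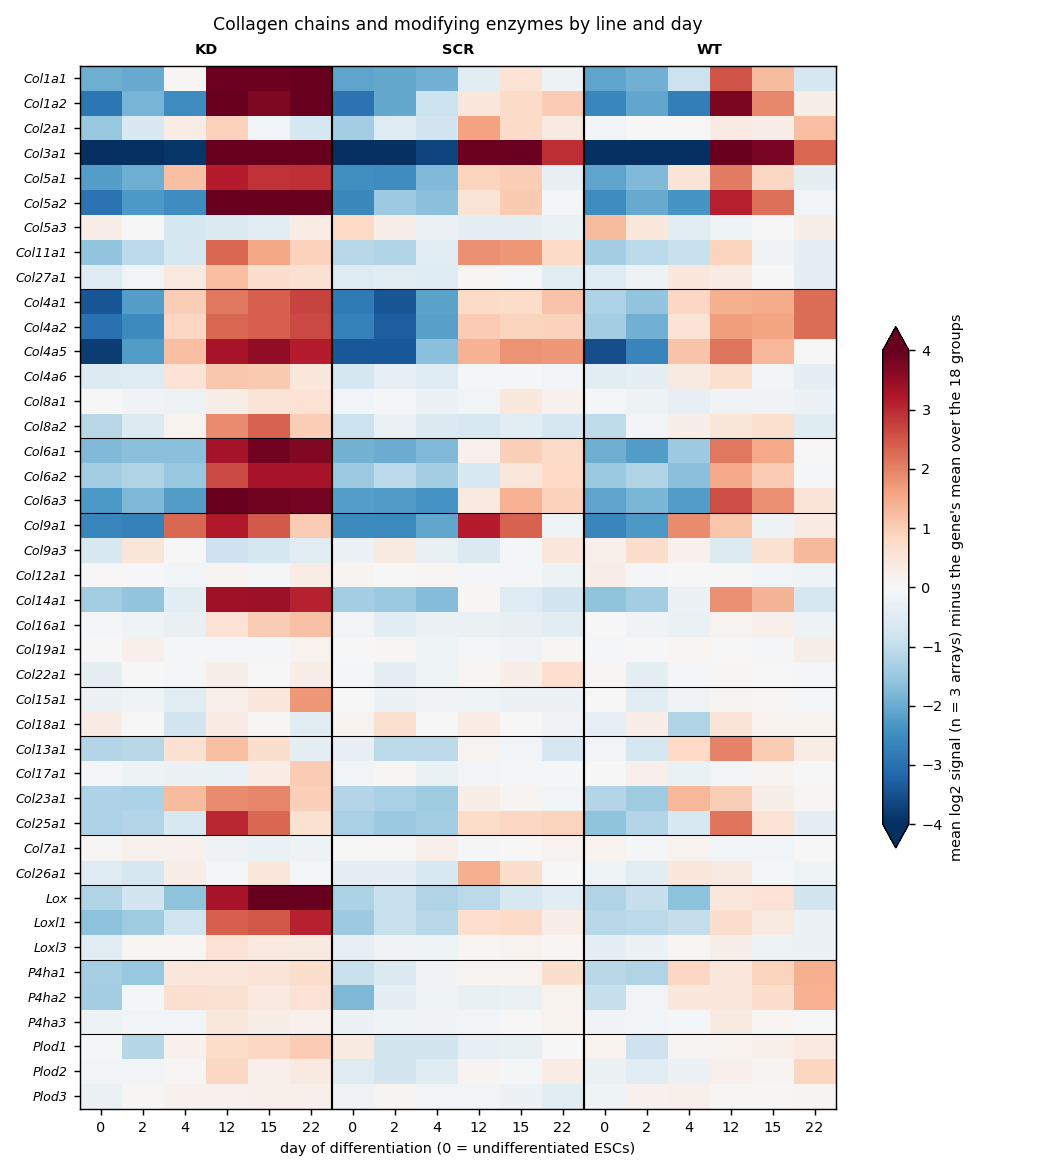
Mean log2 RMA signal of the 42 members (rows, grouped by kind, from fibrillar chains at the top to lysyl hydroxylases at the bottom) in the 18 groups (columns, by day within KD, SCR and WT; n = 3 arrays each), shown as the difference from the gene's own mean over the groups. Colours beyond 4 units are clipped. Col1a1, Col1a2, Col3a1, Col5a1, Col5a2, the Col6 chains, Col14a1 and Lox are highest in the KD columns of days 12 to 22, and SCR at day 4 lacks the early colour of Col4a1, Col4a2, Col4a5 and Col9a1.

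In undifferentiated ESCs, Col4a1 and Col4a2 were lower in both transfected lines than in WT, while the other 4 network chains did not pass. Between KD and SCR ESCs 0 of 42 members passed at day 0 (0.702% of all genes higher, 0.503% lower), with an unadjusted p under 0.05 for 9 of the 42 and 1 passing without KD replicate 3. Against WT ESCs 4 members fell in KD and 0 rose (1.18% of all genes lower, 0.347% higher), and 3 fell in SCR and 0 rose (0.78% lower, 0.121% higher). Col4a1 fell by 2.18 (SE 0.115, adjusted p = 6.79e-18) in KD and by 1.61 (SE 0.115, adjusted p = 1.22e-13) in SCR. Its arrays read 5.63, 5.34 and 5.34 in KD, 6.04, 6.0 and 5.99 in SCR and 7.66, 7.54 and 7.66 in WT, and no array of either transfected line reached a WT array. Col4a2 fell alongside, by 1.60 in KD and 1.30 in SCR, with arrays at 4.31, 3.92 and 4.15 in KD, 4.42, 4.47 and 4.38 in SCR and 5.91, 5.59 and 5.67 in WT. Col2a1, the chain of cartilage fibrils, fell by 1.43 in KD and 1.30 in SCR. Col13a1, a transmembrane chain of cell adhesions, fell by 1.08 in KD and gave -0.24 in SCR, which did not pass. These contrasts share the WT arrays.

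At day 2, Col4a1, Col4a2 and Col4a5 were the only members that passed in a comparison between populations. In SCR EBs Col4a1 and Col4a2 fell against WT, by 1.85 and 1.37, and no member rose (1.74% of all genes lower, 0.858% higher). Between KD and WT EBs 0 of 42 members passed (0.0638% of all genes higher, 0.9% lower), although 13 of the 42 had an unadjusted p under 0.05, and the widest differences were -0.64 for Col4a2 and -0.63 for Col4a1. Between KD and SCR EBs Col4a1 rose by 1.22 and Col4a5 by 1.17, and 0 members fell (2.34% of all genes higher, 2.4% lower). Col4a1 read 6.72, 6.50 and 6.74 in KD, 5.30, 5.66 and 5.33 in SCR and 7.19, 7.35 and 7.30 in WT at day 2, so that KD lay between the other two populations. Col4a5, a chain of specialised basement membranes such as that of the kidney, read 4.22, 3.92 and 4.26 in KD and 3.05, 3.08 and 2.76 in SCR. Its WT arrays, at 3.20, 4.26 and 3.66, overlapped with KD, and all 3 group means were below the lower quartile. Averaging all probe sets of a gene took both KD against SCR changes below the threshold.

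By day 4 Col4a1, Col4a2, Col5a1, Col9a1 and Col23a1 had risen in both KD and WT EBs, and none of these 5 passed in SCR EBs. Against day 0, 13 members rose and 1 fell in KD (12.7% of all genes higher, 7.98% lower), 3 rose and 2 fell in SCR (9.34% higher, 5.01% lower), and 11 rose and 1 fell in WT (12.7% higher, 9.06% lower). Col4a5 rose by 4.99 in KD, 1.74 in SCR and 4.69 in WT. Col9a1, a chain on the surface of cartilage fibrils, rose by 4.92 in KD and 4.51 in WT, and gave 0.46 in SCR. P4ha2, a prolyl 4-hydroxylase subunit, rose in all 3, by 1.98 in KD, 1.63 in SCR and 1.33 in WT. The genes that fell were Col18a1 in KD, by 1.11, Col5a3 in WT, by 1.67, and in SCR Col5a3 by 1.03 and Plod1 by 1.10.

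Between the populations at day 4, 11 members rose and 1 fell in KD against SCR, beside 5.67% of all genes higher and 6.15% lower, with a median of 0.29 over the members and of −0.00 over all genes. In SCR against WT 2 rose and 10 fell (5.42% of all genes higher, 5.25% lower). In KD against WT 0 passed in either direction (0.0993% of all genes higher, 0.305% lower), 5 of 42 had an unadjusted p under 0.05, 1 passed without KD replicate 1, WT replicate 2 or WT replicate 3, and the widest differences were 0.92 for Col1a1 and 0.67 for Col5a1. All 12 members that passed between KD and SCR at day 4 were chains, and 0 of the 9 enzymes passed, with an unadjusted p under 0.05 for 5 of them. The 3 contrasts share arrays.

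Col9a1 had the widest fitted change between KD and SCR at day 4, a rise of 4.39 (SE 0.256, adjusted p = 4.68e-18). Its arrays read 8.01, 8.29 and 8.34 in KD, 3.74, 4.05 and 3.69 in SCR and 7.17, 8.32 and 7.97 in WT, so that the SCR arrays stood apart below both other populations. They were also below the lower quartile, which leaves the size and the rank of the change uncertain. A second Col9a1 probe set rose by 1.05 in the same contrast. Col4a1 rose by 3.12 (SE 0.115, adjusted p = 1.42e-24), and Col4a2 by 2.99 (SE 0.13, adjusted p = 3.05e-22). Col4a1 read 9.64, 9.96 and 9.87 in KD, 6.44, 6.85 and 6.83 in SCR and 9.43, 9.83 and 9.79 in WT. Col4a2 read 7.82, 8.10 and 7.91 in KD, 4.77, 4.89 and 5.19 in SCR and 7.36, 7.88 and 7.77 in WT, again with SCR below and the other populations overlapping. The bases that their promoter windows share are those printed in capitals. On the X chromosome, Col4a5 rose by 2.86 and its neighbour Col4a6 by 1.06. A second Col4a5 probe set gave 0.66 and a second Col4a6 probe set 0.61, and neither passed. Col4a6 lay below the lower quartile in 12 of the 18 groups.

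Col5a1, whose chain helps to start fibrils of types I and V, rose by 2.95 (SE 0.166, adjusted p = 1.41e-18), with arrays at 8.0, 8.39 and 8.23 in KD, 4.96, 5.42 and 5.40 in SCR and 7.13, 7.83 and 7.64 in WT. Col1a1, the major chain of type I collagen, rose by 1.96 and read 6.19, 6.69 and 6.34 in KD, 4.68, 4.27 and 4.40 in SCR and 4.89, 5.80 and 5.77 in WT. One of the WT arrays of Col1a1 stood nearly 1 unit below its companions. Among the transmembrane chains, Col23a1 rose by 2.69 and Col13a1 by 1.67. Col23a1 read 6.70, 6.35 and 6.52 in KD, 3.75, 4.03 and 3.71 in SCR and 7.01, 6.02 and 6.65 in WT, and Col13a1 read 6.27, 6.6 and 6.32 in KD, 4.39, 4.83 and 4.96 in SCR and 7.09, 6.18 and 6.53 in WT. For both genes the SCR arrays lay below all others, those of Col23a1 below the lower quartile. Col14a1, which encodes a fibril-associated chain, rose by 1.26 in the probe set used and gave 0.19, short of the threshold, in its second one, and both group means of the used probe set were below the lower quartile. Col2a1 rose by 1.07.

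Col1a2 went the other way. It fell by 1.64 (SE 0.188, adjusted p = 1.24e-09) in KD against SCR at day 4, with arrays at 5.05, 4.57 and 5.07 in KD and 6.42, 6.64 and 6.55 in SCR, and it rose by 1.89 in SCR against WT, where the WT arrays read 4.30, 4.51 and 5.13. Of its 3 probe sets, 2 fell in KD against SCR and the dimmest, at a mean of 2.54 over all arrays, gave −0.20, and the mean of the 3 did not pass. The other chain of the type I heterotrimer, Col1a1, differed in the opposite direction at the same day in the probe set used. The second Col1a1 probe set gave 0.76 and did not pass. Col18a1, the source of endostatin, also rose in SCR against WT, by 1.21.

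**Figure D2:**
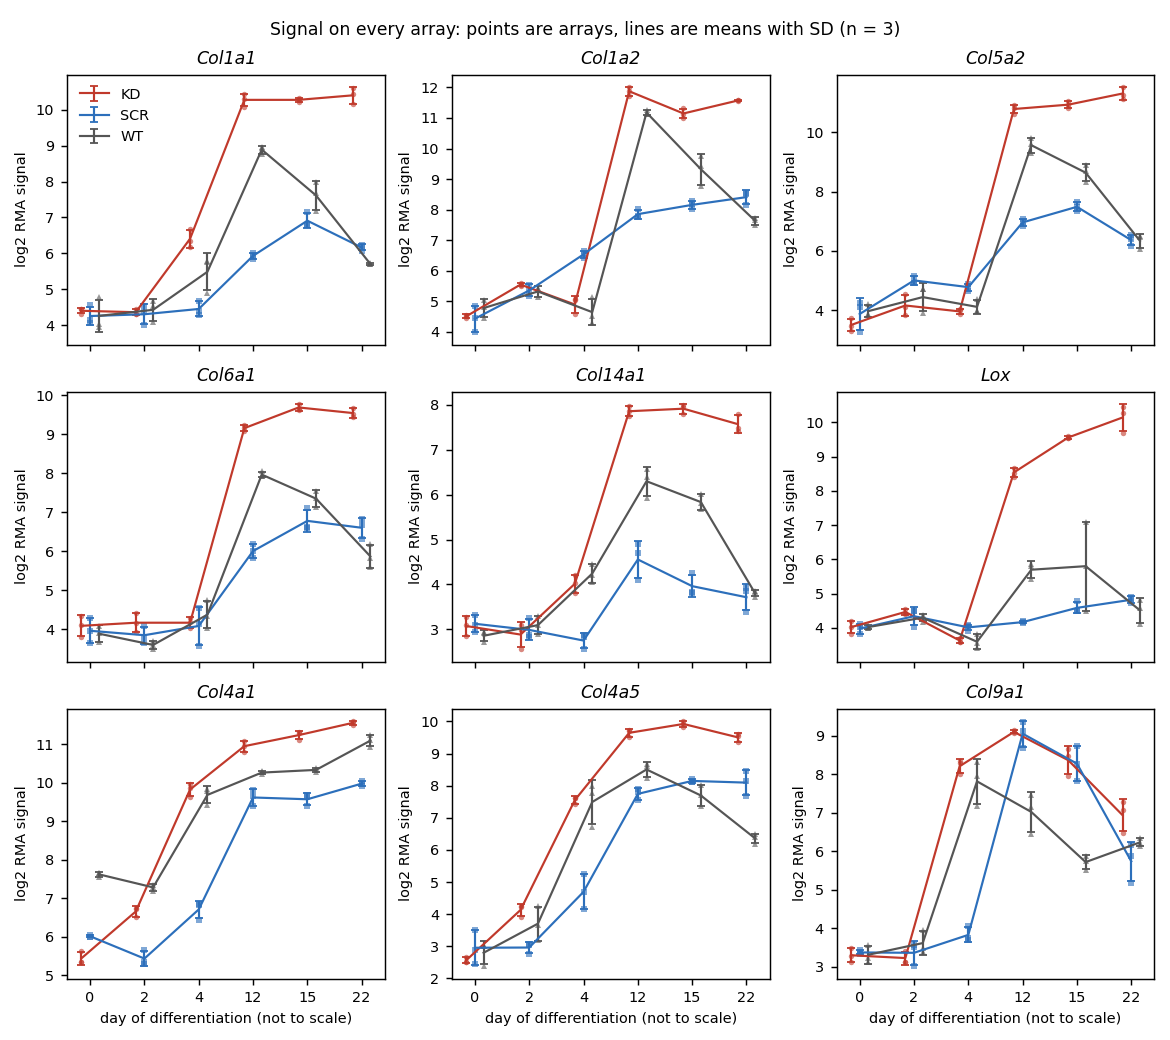
Log2 RMA signal of 9 members on every array (points) with the group mean and SD (lines and bars, n = 3 arrays) by day of differentiation in KD (red circles), SCR (blue squares) and WT (grey triangles). At day 4 the SCR points of Col4a1, Col4a5 and Col9a1 lie below KD and WT, and from day 12 the KD points of Col1a1, Col5a2, Col6a1, Col14a1 and Lox lie above both.

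From day 12 on, the chains Col1a1, Col1a2, Col3a1, Col5a1 and Col5a2 of mesenchymal fibrils, the type VI chains and the cross-linking enzymes Lox and Loxl1 were higher in KD EBs than in both other populations. Over days 12, 15 and 22 together, 19 of the 42 members rose in KD against SCR and 0 fell, which is 45.2% of the members, beside 10.1% of all genes higher and 4.88% lower. The median change was 0.96 for the members and −0.02 for all genes. In KD against WT 17 rose and 1 fell, with 11.2% of all genes higher and 6.2% lower and medians of 0.71 and 0.03. In SCR against WT 2 rose and 6 fell (3.47% of all genes higher, 2.42% lower), those that fell including Col5a2 by 1.25, Col1a2 by 1.24 and Col1a1 by 1.07. At the single days, 21, 20 and 22 members rose in KD against SCR at days 12, 15 and 22, and 1, 0 and 1 fell, namely Col26a1 by 1.5 at day 12 and Col2a1 by 1.06 at day 22. The shares of all genes were 8.66% higher and 5.46% lower at day 12, 10.3% and 6.16% at day 15, and 11.9% and 4.61% at day 22. With only the brightest 60% of the probe sets, the changed members were 14 at day 12 and 13 at day 15, and 10 in KD against WT over the 3 days. Members dimmer than this cut were counted there as not changed.

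Of the 9 fibrillar chains, 5 rose in KD against SCR and 0 fell, beside 10.1% of all genes higher and 4.88% lower. The 5 were chains of types I, III and V. Col5a2 rose by 4.08 (SE 0.116, adjusted p = 3.27e-29). At day 12 it read 10.91, 10.63 and 10.83 in KD, 7.08, 6.84 and 6.96 in SCR and 9.29, 9.80 and 9.61 in WT. At day 22 it read 11.26, 11.14 and 11.54 in KD, 6.17, 6.39 and 6.52 in SCR and 6.06, 6.46 and 6.49 in WT, and the KD arrays were above all others at both days. Col1a1 rose by 3.98 (SE 0.116, adjusted p = 6.86e-29), a change of 15.8-fold. Its arrays read 10.30, 10.09 and 10.44 in KD, 5.92, 5.85 and 6.02 in SCR and 8.76, 8.97 and 8.94 in WT at day 12. At day 22 they read 10.62, 10.15 and 10.44 in KD, 6.23, 6.07 and 6.19 in SCR and 5.69, 5.70 and 5.72 in WT. WT was thus intermediate at day 12 and below SCR at day 22. A second Col1a1 probe set rose by 2.95.

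Col1a2, lower in KD than in SCR at day 4, rose by 3.39 (SE 0.109, adjusted p = 1.7e-27) later. At day 12 its arrays read 12.01, 11.72 and 11.89 in KD, 7.75, 8.02 and 7.79 in SCR and 11.14, 11.26 and 11.13 in WT, while those of day 22 read 11.58, 11.59 and 11.54 in KD, 8.16, 8.55 and 8.52 in SCR and 7.50, 7.66 and 7.74 in WT. KD and WT lay within 1 unit of each other at day 12 and nearly 4 apart at day 22. Col5a1 rose by 2.46, with arrays at 9.93, 9.76 and 10.09 in KD, 6.6, 6.69 and 6.73 in SCR and 6.73, 6.50 and 6.6 in WT at day 22. Col3a1 rose by 1.90, and by 2.86 in its second probe set. Against WT, with the same KD arrays, Col1a1 rose by 2.92, Col5a2 by 2.83, Col1a2 by 2.15, Col5a1 by 2.15 and Col3a1 by 1.91. The 4 fibrillar chains that did not pass against SCR were Col2a1 at -0.88, Col11a1 at 0.15, Col5a3 at 0.11 and Col27a1 at 1.00, just under the threshold.

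All 3 type VI chains, which form filaments between cells and fibrils, rose in KD against SCR, beside 10.1% of all genes. Col6a1 rose by 3.00, Col6a3 by 3.00 and Col6a2 by 2.86, and against WT by 2.40, 2.26 and 2.26. At day 4 their changes in KD against SCR were 0.08, 0.11 and -0.17, and 0 of the 3 passed or had an unadjusted p under 0.05. The shares of all genes that passed there were 5.67% higher and 6.15% lower. Col6a1 read 9.63, 9.78 and 9.65 in KD, 7.10, 6.61 and 6.63 in SCR and 7.13, 7.55 and 7.37 in WT at day 15. Col6a2 read 10.66, 10.84 and 10.62 in KD, 8.04, 7.71 and 7.85 in SCR and 8.26, 8.58 and 8.49 in WT, and Col6a3 read 10.59, 10.64 and 10.53 in KD, 8.30, 7.98 and 8.02 in SCR and 8.40, 8.64 and 8.60 in WT. At that day the lowest KD array of each chain was more than 1.5 units above the highest array of the other populations.

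Among the 6 network-forming chains 4 rose in KD against SCR, beside 10.1% of all genes higher and 4.88% lower. Col8a2, a short chain of the membrane beneath corneal and vascular endothelium, rose by 2.34, with arrays at 6.90, 6.45 and 6.87 in KD, 3.99, 3.86 and 3.89 in SCR and 5.03, 4.91 and 5.09 in WT at day 15. The SCR arrays lay below the lower quartile at that day. Col4a5 rose by 1.69, Col4a1 by 1.53 and Col4a2 by 1.5, and these differences between KD and SCR were narrower than at day 4. Col4a1 read 11.60, 11.57 and 11.50 in KD, 10.05, 9.91 and 9.97 in SCR and 11.24, 10.94 and 11.10 in WT at day 22. The Col4a1 change in KD against WT over the 3 days was 0.68 and that of Col4a2 0.61, neither past the threshold, while Col4a5 rose by 2.17. Col4a6, the neighbour of Col4a5, gave 0.92 against SCR and did not pass.

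Of the 7 fibril-associated (FACIT) chains 2 rose in KD against SCR, beside 10.1% of all genes higher and 4.88% lower. Col14a1 rose by 3.70 (SE 0.103, adjusted p = 1.67e-29), reading 7.85, 7.74 and 7.97 in KD, 4.89, 4.09 and 4.69 in SCR and 5.93, 6.56 and 6.40 in WT at day 12, and 7.41, 7.49 and 7.80 in KD, 3.38, 3.85 and 3.92 in SCR and 3.73, 3.85 and 3.83 in WT at day 22. Its second probe set rose by 1.62. Against WT Col14a1 rose by 2.47. Its means in SCR at days 15 and 22 and in WT at day 22 were below the lower quartile. Col16a1 rose by 1.27, with arrays at 7.07, 7.37 and 7.41 in KD, 5.68, 5.60 and 5.67 in SCR and 5.90, 5.98 and 5.85 in WT at day 22. Col12a1, a FACIT chain of tendon and ligament, gave different answers by probe set: the used one changed by 0.22 and did not pass, and the dimmer second one rose by 2.24 against SCR and by 2.48 against WT. Of the 4 transmembrane chains, Col23a1 rose by 1.52 and Col25a1 by 1.16. Col25a1 arrays read 6.93, 7.72 and 7.79 in KD, 5.28, 4.92 and 5.40 in SCR and 6.02, 6.63 and 7.20 in WT at day 12, and 4.74, 5.37 and 5.15 in KD, 4.77, 5.74 and 5.59 in SCR and 4.36, 3.69 and 4.25 in WT at day 22. The KD and SCR arrays of Col25a1 therefore overlapped by day 22.

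Of the 9 enzymes 3 rose in KD against SCR over days 12 to 22, namely Lox, Loxl1 and Plod1, and 0 fell. The shares of all genes were 10.1% higher and 4.88% lower. Lox, which encodes lysyl oxidase, had the widest fitted change of all members in both comparisons, a rise of 4.89 (SE 0.161, adjusted p = 4.06e-27) in KD against SCR and of 4.08 (SE 0.161, adjusted p = 2.11e-24) against WT. It read 8.40, 8.53 and 8.68 in KD, 4.20, 4.16 and 4.14 in SCR and 5.81, 5.42 and 5.86 in WT at day 12. At day 15 it read 9.53, 9.60 and 9.54 in KD, 4.49, 4.49 and 4.77 in SCR and 4.50, 7.09 and 5.81 in WT. At day 22 it read 10.28, 9.69 and 10.45 in KD, 4.91, 4.72 and 4.83 in SCR and 4.12, 4.82 and 4.59 in WT. The KD arrays were above every other array at each of these days, and the 3 WT arrays of day 15 were spread over more than 2 units. The SCR arrays of day 12 were below the lower quartile, so that the size and the rank of the change against SCR are uncertain. A second Lox probe set rose by 4.53 against SCR. Loxl1, a lysyl oxidase linked to elastic fibres, rose by 2.07 against SCR and 2.36 against WT, with arrays at 8.47, 8.12 and 8.80 in KD, 5.39, 5.88 and 5.68 in SCR and 4.92, 5.20 and 5.37 in WT at day 22. Loxl3 changed by 0.34 against SCR and 0.51 against WT and did not pass.

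Among the 6 hydroxylases only Plod1 passed in KD against SCR, beside 10.1% of all genes higher and 4.88% lower. Plod1, a lysyl hydroxylase, rose by 1.08 (SE 0.0844, adjusted p = 8.17e-15) in KD against SCR and gave 0.63 against WT. Its arrays read 7.01, 7.07 and 6.98 in KD, 6.08, 5.78 and 5.94 in SCR and 6.17, 6.37 and 6.68 in WT at day 12. Plod2 and Plod3 changed by 0.36 and 0.44 against SCR, and P4ha1, P4ha2 and P4ha3 by 0.23, 0.67 and 0.29. None of these 5 passed, though each had an adjusted p under 0.05 with a change below 2-fold. P4ha2 fell in SCR against WT over days 12 to 22 by 1.00 (SE 0.0752, adjusted p = 9.04e-15), at the threshold itself, and missed the threshold when replicate 1 of WT day 12 or 22, replicate 2 of WT day 15, replicate 3 of WT day 22, replicate 3 of SCR day 12, or replicate 2 or 3 of SCR day 15 or 22 was left out (−0.97 without replicate 2 of SCR day 22, the smallest in size). Its arrays read 7.04, 6.64 and 6.75 in SCR and 8.21, 7.86 and 8.13 in WT at day 22. The KD arrays of P4ha2 read 7.40, 7.16 and 7.19 at that day.

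**Figure D3:**
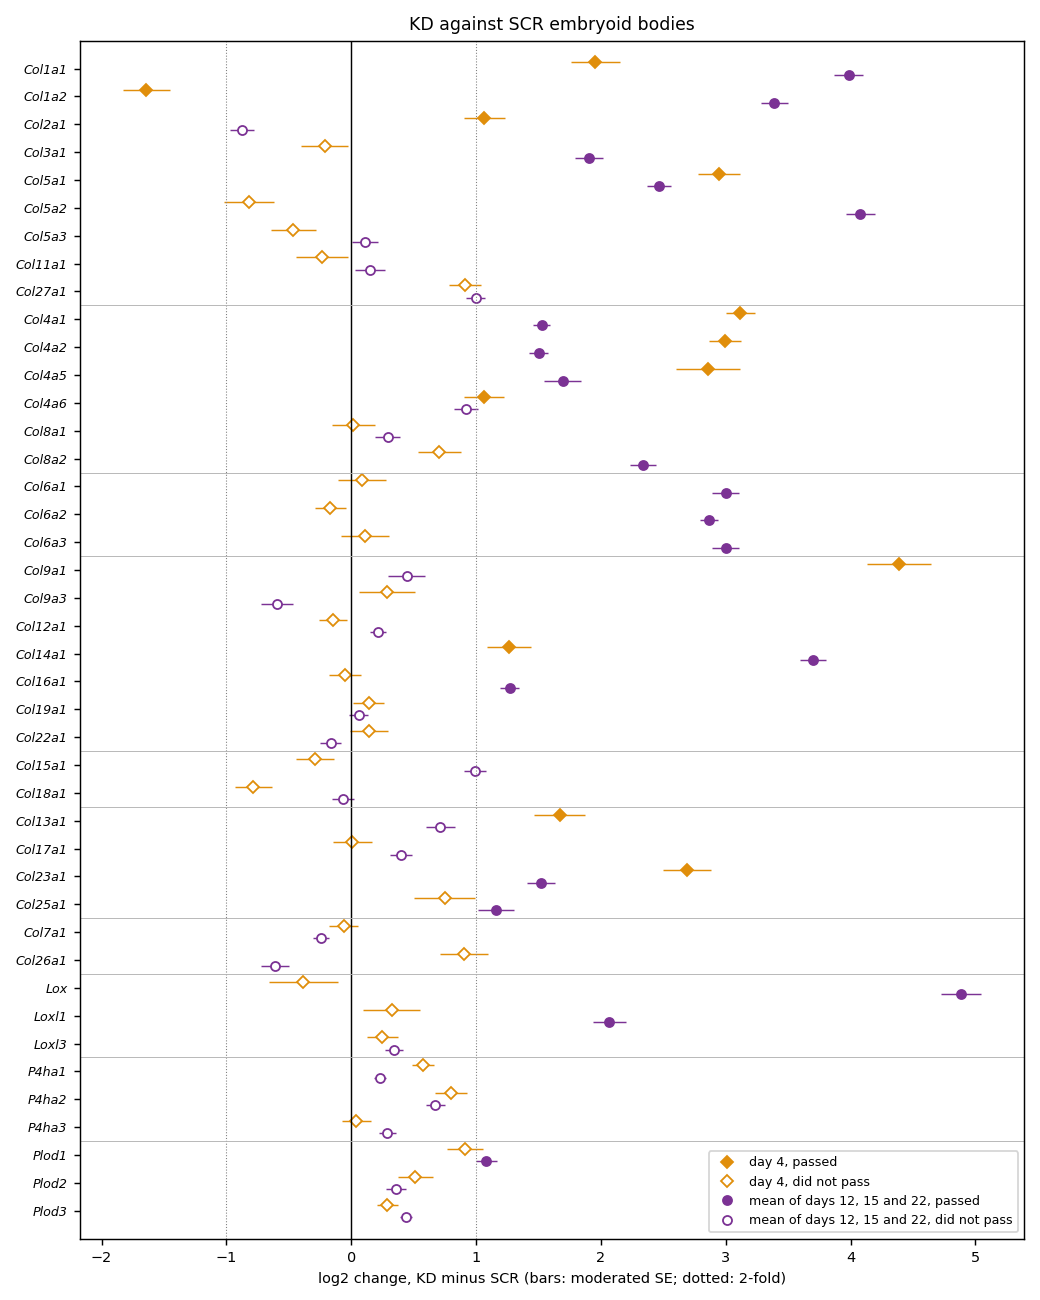
Log2 change of each member in KD against SCR EBs with its standard error, at day 4 (orange diamonds) and as the mean of days 12, 15 and 22 (purple circles). Filled symbols passed (adjusted p under 0.05 and at least 2-fold, the dotted lines) and open ones did not. At day 4 there were 11 members that rose, and Col1a2 fell. Over days 12 to 22 there were 19 that rose, with Lox at 4.89 and Col5a2 at 4.08.

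The difference between KD and SCR was itself not the same early and late. Subtracting the day 4 difference from that of days 12 to 22 gave a change past the threshold for 20 members, upward for 13 (11.3% of all genes) and downward for 7 (5.16%). The upward ones included Lox at 5.27, Col1a2 at 5.03, Col5a2 at 4.90, Col6a2 at 3.03, Col6a1 at 2.92 and Col6a3 at 2.89. The downward ones included Col9a1 at -3.94, Col2a1 at -1.94, Col4a1 at -1.59 and Col4a2 at -1.49. Col1a2 was the one member that passed in opposite directions in KD against SCR at day 4 and over days 12 to 22.

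The populations also parted after day 12. Between day 12 and day 22, 14 members fell and 1 rose in WT EBs, beside 3.56% of all genes lower and 1.74% higher. In KD EBs 3 rose and 5 fell (9.65% of all genes higher, 1.99% lower), and in SCR EBs 2 rose and 5 fell (5.3% higher, 1.62% lower). In WT, Col1a2 fell by 3.54, Col5a2 by 3.23, Col1a1 by 3.19, Col5a1 by 2.44, Col3a1 by 2.40, and the type VI chains by 2.10 (Col6a1), 2.06 (Col6a3) and 1.58 (Col6a2). In KD the same 8 genes changed by between −0.30 for Col1a2 and 0.67 for Col6a2, and none of them passed. The test of the difference between KD and WT, a comparison chosen after these values had been seen, passed upward for 14 members (10.9% of all genes) and downward for 4 (1.53%). Col5a2 differed by 3.75 (SE 0.283, adjusted p = 4.73e-14), Col1a1 by 3.31 (SE 0.283, adjusted p = 1.61e-12) and Col1a2 by 3.24 (SE 0.266, adjusted p = 5.3e-13). Lox rose by 1.60 in KD and fell by 1.19 in WT, and the difference of 2.79 passed. The difference between KD and WT was wider at day 22 than at day 12 for Col1a1, at 4.70 and 1.39, and for Col5a2, at 4.98 and 1.22.

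**Figure D4:**
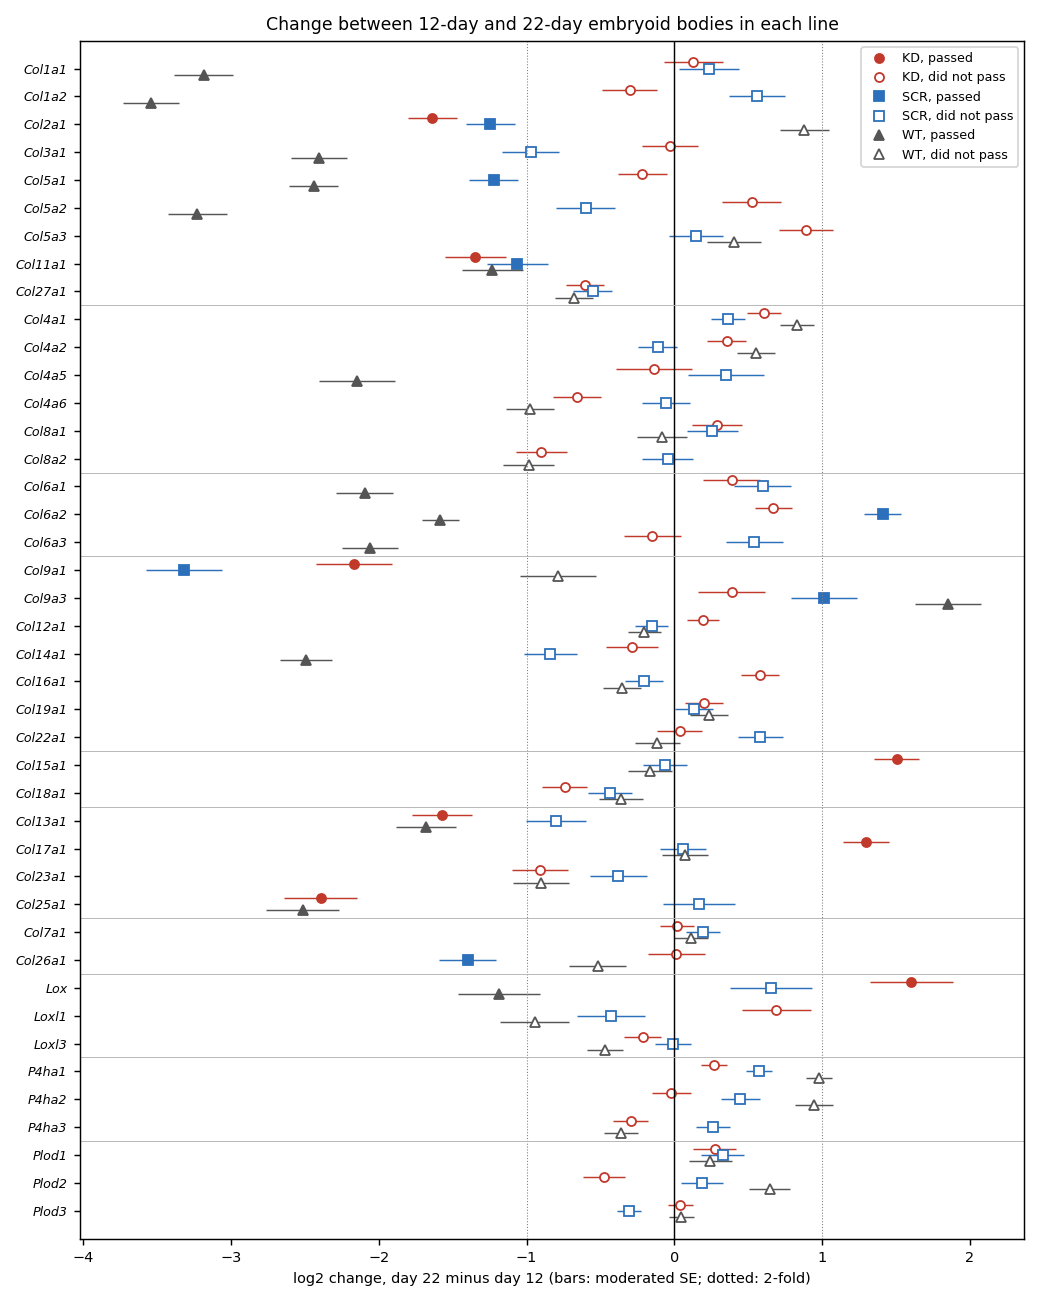
Log2 change of each member between days 12 and 22 (day 22 minus day 12) with its standard error in KD (red circles), SCR (blue squares) and WT (grey triangles). Filled symbols passed (adjusted p under 0.05 and at least 2-fold, the dotted lines) and open ones did not. The WT points of Col1a1, Col1a2 and Col5a2 lie beyond −3, where those of KD lie within 1 unit of 0.

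The cartilage-type chains followed another course. Col2a1 read 6.97, 6.77 and 6.69 in KD, 7.62, 7.35 and 7.47 in SCR and 6.14, 6.18 and 6.29 in WT at day 12. At day 22 it read 5.20, 5.14 and 5.17 in KD, 5.95, 6.49 and 6.26 in SCR and 6.77, 7.21 and 7.27 in WT. It fell by 1.64 in KD and 1.25 in SCR between the 2 days and gave 0.88 in WT, and the difference of -2.52 between KD and WT passed. Col9a1 fell by 2.17 in KD and 3.32 in SCR over the same days. Its arrays read 9.07, 9.10 and 9.15 in KD, 9.36, 8.70 and 9.12 in SCR and 6.45, 7.47 and 7.15 in WT at day 12, where SCR, which was below KD at day 4, overlapped with KD. Col11a1, a chain of the thin fibrils of cartilage, read 7.85, 7.32 and 7.65 in KD, 7.35, 6.95 and 7.13 in SCR and 5.99, 6.57 and 6.04 in WT at day 12. Over days 12 to 22 Col9a1 and Col11a1 rose against WT in both transfected lines, Col9a1 by 1.81 in KD and 1.37 in SCR, and Col11a1 by 1.47 in KD and 1.32 in SCR. The second Col9a1 probe set gave 0.39 in KD and 0.56 in SCR against WT and passed in neither, and the mean of both probe sets did not pass in SCR. Col9a3, a partner of Col9a1 in type IX collagen, fell in KD against WT by 1.12. Against SCR none of these 4 genes passed in KD over the 3 days. Of the 6 cartilage markers listed (Sox9, Acan, Matn1, Matn3, Hapln1 and Comp) 0 passed against SCR, beside 10.1% of all genes higher and 4.88% lower. Of these markers 4 of 6 had an unadjusted p under 0.05, with medians of −0.17 for the markers and −0.02 for all genes. Against WT 1 of the 6 markers rose in KD and 1 fell, beside 11.2% of all genes higher and 6.2% lower. The median of the markers was -0.45 there, and all 6 had an unadjusted p under 0.05. Comp and Matn1 stayed below the lower quartile in all 3 populations. Over days 12 to 22 Acan and Matn3 were also below it in KD, and Hapln1 in WT. The signals of these markers there say little about their transcripts.

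Col15a1 and Col17a1 were low through most of the series and higher in KD at day 22. Col15a1, of basement membrane zones in muscle and vessels, read 5.85, 5.47 and 6.16 in KD, 3.95, 3.92 and 3.74 in SCR and 4.18, 3.98 and 4.00 in WT at day 22, and it rose between days 12 and 22 in KD by 1.5. Col17a1, a hemidesmosome chain of stratified epithelium, read 4.00, 4.64 and 4.35 in KD, 3.26, 3.26 and 3.30 in SCR and 3.33, 3.28 and 3.23 in WT at day 22 and rose by 1.30 in KD between the days. KD arrays of both genes were above the other arrays at day 22, and the KD mean of Col17a1 was still below the lower quartile there. Of the 4 markers of stratified epithelium, 3 rose in KD against SCR over days 12 to 22 and 0 fell. The shares of all genes were 10.1% higher and 4.88% lower. Krt15 rose by 5.65, Trp63 by 2.21 and Krt14 by 1.75. All 3 were below the lower quartile in SCR at each of these days, so that the sizes are uncertain. The mean log2 signal of the 4 markers per array ran between 5.73 and 7.16 in KD, 3.65 and 3.96 in SCR and 3.86 and 4.49 in WT. The part of these markers in the results was not tested.

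Of 40 other genes of the collagen pathway, 33 were measured. Over days 12 to 22 in KD against SCR, 15 of them rose and 1 fell, beside 10.1% of all genes higher and 4.88% lower, with a median of 0.91 for the list and −0.02 for all genes. Among 9 genes of folding and modification 4 rose: P3h3 and P3h4, of the prolyl 3-hydroxylase family, by 1.62 and 1.17, Serpinh1, the collagen chaperone HSP47, by 1.31, and Crtap, a partner of prolyl 3-hydroxylase, by 1.11. Of 5 genes of propeptide cleavage 3 rose, the enhancer Pcolce by 1.84 and the proteases Bmp1 by 1.07 and Tll1 by 1.06, and the enhancer Pcolce2 fell by 1.04. Of 9 genes of collagen breakdown and its inhibition 6 rose, both proteases (Mmp2 by 2.37, Mmp14 by 1.99) and inhibitors (Timp1 by 1.95, Timp3 by 1.91). Of 5 receptor genes only Itga1, an integrin subunit that binds collagen, rose, by 1.85, and of 5 genes of secretory transport and its control only Creb3l1, a transcription factor of secretory genes, by 1.05. At day 4, 7 pathway genes rose and 1 fell, beside 5.67% of all genes higher and 6.15% lower, with a median of 0.37 and the widest rises in Serpinh1 at 2.15 and Adamts3, a procollagen protease, at 2.05.

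Markers of several cell types moved with these results. Over days 12 to 22 in KD against SCR, 4 of 6 markers of mesenchyme and fibroblasts rose and none fell, as did 4 of 5 of smooth muscle, 3 of 5 of endothelium and 4 of 7 of parietal and visceral endoderm, while 4 of 5 neural and all 5 pluripotency markers fell, beside 10.1% of all genes higher and 4.88% lower. Against WT, where 11.2% of all genes were higher and 6.2% lower, 4 of 6 mesenchyme, 4 of 5 smooth muscle and 3 of 5 endothelium markers rose in KD and none of these fell, 1 of 7 endoderm markers rose and 1 fell, and all 5 pluripotency markers fell. The neural markers turned the other way against WT, with 1 of 5 higher, 0 lower and a median of 0.68. Of 6 bone markers listed, 4 were measured, and 1 rose and 1 fell in KD against SCR and against WT. Their medians were -0.04 against SCR and -0.03 against WT. The mean log2 signal of the mesenchyme markers per array ran between 8.65 and 9.10 in KD, 6.74 and 8.11 in SCR and 6.94 and 7.97 in WT, and that of the smooth muscle markers between 7.11 and 8.47 in KD, 5.35 and 6.87 in SCR and 5.42 and 6.47 in WT. The endoderm markers ran between 9.83 and 10.42 in KD, 7.47 and 8.81 in SCR and 9.38 and 10.42 in WT, and the pluripotency markers between 6.97 and 9.14 in KD, 10.24 and 10.94 in SCR and 10.44 and 10.99 in WT. At day 4 the mesenchyme markers lay at 7.63 to 8.19 in KD, 4.46 to 4.86 in SCR and 7.10 to 8.11 in WT, where Pdgfra, Pdgfrb and Prrx1 were below the lower quartile in SCR, and the pluripotency markers at 7.11 to 7.96 in KD, 10.43 to 10.59 in SCR and 7.98 to 8.56 in WT. Of the endoderm markers 2 of 7 rose in KD against SCR at day 4 and 0 fell, with a median of 0.80, beside 5.67% of all genes higher and 6.15% lower. Smooth muscle and neural markers were, by contrast, highest in SCR at day 4. The smooth muscle markers lay at 6.7 to 6.74 in SCR, 6.13 to 6.27 in KD and 5.69 to 6.0 in WT. The neural markers lay at 5.88 to 5.98 in SCR, 4.42 to 4.52 in KD and 4.57 to 4.68 in WT. Neurod1, Pax6 and Sox1 were below the lower quartile in KD and WT there. The SCR arrays thus stood apart at day 4 in these markers, below KD and WT in some kinds and above in others. They also stood apart in Col4a1 and Col9a1, and the part of the mix of cells in the collagen results was not tested.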

How the data were processed

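The authors deposited log2 values after robust multi-array averaging (RMA), which corrects background, equalises the distributions of the arrays by quantiles and summarises probes into probe sets. The submitters' processing notes name Affymetrix Expression Console and Partek 6.6, and the study's methods name Bioconductor packages. Quantile normalization brings the arrays towards a common distribution, so a shift common to most genes would be reduced or lost, and the array medians of the deposited table ran between 5.94 and 6.26. There were 54 arrays and 0 unused columns of values, and the number of arrays limits the precision. The labels do not say that the 3 arrays of a group came from separate cultures, so p-values measure only the spread between arrays, which may be technical.

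Groups were taken from the labels. A linear model held a mean for every group (18 in all) and was fitted to the whole table with limma 3.58.1 in R 4.3.3 (36 residual degrees of freedom), with empirical Bayes moderation and Benjamini-Hochberg adjustment over all 30939 probe sets. Shares of all genes refer to 14104 genes with 1 probe set each, and 25596 probe sets carried 1 symbol, 685 several and 4658 none. The code was tested on simulated data. The members and lists were chosen with earlier results of these data known, and the comparisons of day 22 with day 12 were added after the values had been seen. Array values are given, in each kind of chain or enzyme, for up to 4 members with the widest passing change in KD against SCR over days 12 to 22 and up to 2 in each other comparison of populations, beside members described for a stated reason. Alternatives were quantile normalization of the deposited values, median centring, the brightest 60% of probe sets, the mean of a gene's probe sets, a replicate block, trended and robust moderation, array weights, a 1.5-fold minimum, only the arrays compared, and leaving out each array. Promoter sequences came from RefSeq (GRCm38.p6). Figures were drawn with matplotlib 3.10.9.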

Additional observations from a re-analysis of the deposited data

Results flagged for a closer look

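The difference between KD and SCR EBs was tested against itself at the early and the late time points, and 20 members passed (limma, adjusted p under 0.05 and at least 2-fold). Of all genes, 11.3% passed upward and 5.16% downward. On the log2 scale, the difference over days 12 to 22 exceeded that at day 4 for Col1a1 (2.03), Col1a2 (5.03), Col3a1 (2.12), Col5a2 (4.90), Col8a2 (1.63), Col6a1 (2.92), Col6a2 (3.03), Col6a3 (2.89), Col14a1 (2.43), Col16a1 (1.32), Col15a1 (1.28), Lox (5.27) and Loxl1 (1.74). It was smaller, or turned, for Col2a1 (-1.94), Col4a1 (-1.59), Col4a2 (-1.49), Col4a5 (-1.16), Col9a1 (-3.94), Col23a1 (-1.18) and Col26a1 (-1.51). Col1a2 is the 1 member that passed in opposite directions at the early and the late stage, lower in KD at day 4 and higher later. The day 4 part of each value rests on the SCR arrays of that day, which also stood apart from KD and WT in mesenchyme and pluripotency markers and in Mageb16. Where a group mean lay below the lower quartile, as for Col9a1 in SCR at day 4 and Lox in KD and SCR at day 4, the size of the value is uncertain.

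The change between days 12 and 22 differed between KD and WT EBs for 18 members, in a comparison chosen after the values had been seen. Among all genes, 10.9% passed upward and 1.53% downward. The change in KD minus that in WT was positive for Col1a1 (3.31), Col1a2 (3.24), Col3a1 (2.37), Col5a1 (2.22), Col5a2 (3.75), Col4a5 (2.01), Col6a1 (2.48), Col6a2 (2.25), Col6a3 (1.91), Col14a1 (2.21), Col15a1 (1.67), Col17a1 (1.22), Lox (2.79) and Loxl1 (1.64). It was negative for Col2a1 (-2.52), Col9a1 (-1.38), Col9a3 (-1.47) and Plod2 (-1.12). Of these members, 14 also passed in the first comparison. Both comparisons use the KD arrays of days 12 and 22, so they are not independent of each other.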

How the results depend on the processing

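With the 26 counts of changed members as the measure, quantile normalization of the deposited values, median centring, trended and robust moderation, array weights and the use of only the arrays compared moved none by over 1.5 times. The array weights were very uneven, and replicate 3 had the largest in 16 of the 18 groups. At day 0 in WT it had 45.2, against 0.455 and 0.646 for replicates 1 and 2, while replicate 3 of SCR day 22 had 8.64e-15. For Mageb16, replicate 3 read between replicates 1 and 2 in most groups, as in SCR at day 12 (8.87, 9.55 and 9.18). It lay outside them in others, as in KD at day 22 (7.03, 7.43 and 6.89). The labels do not say how replicate 3 was obtained, and the reason was not tested. The SEs and adjusted p-values treat the 3 arrays of a group as independent, which the labels do not state, and would be too small if they were not. Deviations of same-numbered arrays correlated at −0.4 to 0.501 (median 0.0367, over 0.1 in 139 of 459 pairs) and those of other numbers at −0.423 to 0.486 (median −0.0156, over 0.1 in 73 of 918). Correlations over 0.1 were thus more frequent among same numbers, but most pairs were under it and the labels give no shared source, so the numbers were not read as pairs. The replicate block left the count at 19 in KD against SCR over days 12 to 22 and moved no other count by over 1.5 times. Keeping the brightest 60% of probe sets, which tests fewer genes, gave 14 changed members in KD against SCR at day 12 and 13 at day 15, 10 in KD against WT over days 12 to 22, 17 in KD and 15 in WT over days 12 to 22 against day 0, 3 in KD and 4 in SCR between days 12 and 22, and 13 for the late minus early difference between KD and SCR. Members dimmer than this cut were not tested and were counted as not changed. The mean of all probe sets gave 0 in KD against SCR at day 2 and 4 in SCR against WT over days 12 to 22. A 1.5-fold minimum gave 1, 7 and 20 in KD against SCR at days 0, 2 and 4, 7, 3 and 2 in KD against WT at the same days, 5, 20 and 17 in SCR against WT at days 2 and 4 and over days 12 to 22, 13 in SCR between days 0 and 4, and 17, 12 and 26 in KD, SCR and WT between days 12 and 22. Leaving out single arrays gave 0 to 1 in KD against SCR at day 0 (1 without KD replicate 3) and 0 to 1 in KD against WT at day 4 (1 without KD replicate 1, WT replicate 2 or WT replicate 3). Of 1121 values of 47 changes of single genes, 1106 kept their direction and side of the threshold and 15 lost the call, with 0 reversed. Those were Col4a1 and Col4a5 at day 2, Col14a1 and Col1a2 at day 4, and Col9a1 and Col14a1 in SCR against WT under the mean of probe sets, and P4ha2 in SCR against WT when any of 9 single arrays was left out. The cause was not tested. Members near or below the lower quartile of an array are limited by signal over background.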
